A study of Triticum turgidum subsp. durum with 24 samples.

Results

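Probe sets (PSs) for photosynthesis and chlorophyll were followed in leaves of durum wheat (Triticum turgidum subsp. durum) under drought and heat. The members are the PSs whose annotation in the study's list of differentially expressed PSs, or in its table of 9 expression clusters, holds 1 of 7 words: photosystem, chlorophyll, light-harvesting, ribulose, thylakoid, plastocyanin or protochlorophyllide. They are 19 PSs of 3155 annotated in the parts of both tables held here and of 61290 on the array, and they match 13 different Arabidopsis genes. Each member therefore comes from a list that the study made from these same arrays, and the values of all 19 are given as a description, without a test. By role, 4 PSs belong to light harvesting, 2 to photosystem II, 1 to chlorophyll synthesis, 3 to protein import into the thylakoid, 1 to carbon fixation, 2 to early light-induced proteins, 2 to a thylakoid antioxidant enzyme and 4 to plastocyanin-like proteins. The last 4 match phytocyanins, blue copper proteins outside the chloroplast electron transport chain, so the word plastocyanin gathered PSs that are not photosynthetic.

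Ofanto and Cappelli are cultivars of lower and higher water use efficiency, as described in the study. They were compared in 8 groups of 3 arrays. Control plants (Ctrl) were kept at 28% soil water and a day temperature of 19 °C, drought-stressed plants (DS) at 12.5% and 19 °C, heat-stressed plants (HS) at 28% and 40 °C, and plants under combined stress (CS) at 12.5% and 40 °C. Heat was raised stepwise over several days. The study's methods place sampling at the flag leaf at booting, while the sample labels give the stage as 3 leaf fully expanded, and the tissue was whole leaf. The labels also name hot phenol extraction and whole-transcript labelling where the methods name TRIZOL and a One-Cycle kit. The free-text descriptions of Ofanto Ctrl replicates 2 and 3 hold the drought treatment although their titles and source names say control. Both were kept as controls and left out in an alternative. The study calls the replicates biological triplicates, but the number of plants behind each RNA is not stated, and the p-values therefore rest on the spread among the 3 arrays of a group, which may be in part technical.

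Leaves capture light with antenna proteins that bind chlorophyll and pass the energy to photosystems in the thylakoid membrane of the chloroplast, where photosystem II splits water. The electron transport chain then makes the ATP and reducing power with which RuBisCO and the Calvin cycle fix carbon dioxide. RuBisCO is kept active by RuBisCO activase, a heat-labile chaperone-like ATPase, and heat and strong light are known to damage photosystem II. Early light-induced proteins (ELIPs) are relatives of the antenna proteins that accumulate when leaves are under light stress.

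The deposited values are MAS5 signals of the Affymetrix wheat array, in arbitrary units on a linear scale, scaled by the authors so that every array has the same trimmed mean of 500.3. Values of different PSs are not comparable as levels. A PS entered the tests if in 1 or more groups its signal exceeded, on all 3 arrays, the 60th percentile of that array, a value of 107 to 144. All 19 members and 28072 PSs in all were kept. A PS is said to be called where limma's adjusted p was under 0.01 and the groups differed by 2-fold or more. PSs of the same gene are told apart by the ending of their array name (_at, _x_at, _a_at), or, where the endings are alike, as first and second in the order of their array names. The highest signal on any array was 104760, and no saturation flags were used. The tissue check rests on members: the antenna and RuBisCO activase PSs lay above the percentile on all 6 Ctrl arrays. In whole leaves, fewer cells of a type and less RNA per cell cannot be told apart.

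The members varied more in 2 groups than elsewhere. Cappelli CS replicate 1 and Cappelli HS replicate 3 stood apart in the 7 antenna, photosystem II and chlorophyll a oxygenase PSs. Their median deviation from the group mean was -0.93 and -0.66 on the log2 scale, against 0.36 and 0.58 for the other Cappelli CS arrays and 0.36 and 0.30 for the other Cappelli HS arrays. On the 18 arrays of the other groups it stayed between -0.20 and 0.12. The median SD of the members was 0.59 in Cappelli CS and 0.34 in Cappelli HS, against 0.11 to 0.21 in the other groups. For all kept PSs it was 0.32 and 0.27 in these groups. Results that rest on these arrays are given with and without them. Technical controls also differed between groups. The mean log2 signal of 12 poly-A spike-in PSs ran from 10.52 in Cappelli Ctrl to 12.75 in Ofanto CS, the 3′ minus 5′ log2 difference of sucrose synthase from 3.29 in Ofanto HS to 5.44 in Ofanto Ctrl, and that of ubiquitin from -1.59 in Cappelli HS to -0.96 in Ofanto Ctrl. Their part in the results was not tested.

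Most members that serve photosynthesis directly were called lower in Ofanto under CS and in Cappelli under HS. In Ofanto, 10 of 19 members were called lower and 3 higher in CS against Ctrl, where 19.7% of all kept PSs were called lower and 14.4% higher. In Cappelli HS against Ctrl, 11 members were called lower and 4 higher, against 13.6% and 11.2% of all PSs. In Cappelli CS against Ctrl the members called were 8 lower and 3 higher, against 11.8% and 9.89%. In Ofanto HS they were 1 lower and 2 higher, against 7.46% and 10.4%. Under DS, 1 member was called higher in Cappelli, where 0.891% of PSs were called higher and 0.445% lower. No member was called in Ofanto DS, where 2.67% were called higher and 1.13% lower. There 4 members had an unadjusted limma p under 0.05, and the methods' t-test called 0 members and 6 of all kept PSs. Since these contrasts chose the members, nothing is read from the counts. The median log2 change of the members was -0.26, -0.61 and -1.22 in Ofanto under DS, HS and CS, and -0.06, -1.89 and -0.93 in Cappelli, while the medians of all kept PSs in the same order were 0.01, 0.02, -0.17, -0.02, -0.02 and -0.06.

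Scaling touches these figures. Centring each array on its median instead of the trimmed mean moved the median change of all PSs in Ofanto CS from -0.17 to 0.19, in Ofanto HS from 0.02 to 0.22, in Ofanto DS from 0.01 to 0.12 and in Cappelli DS from -0.02 to 0.10. The share of higher PSs among those called went from 42.2% to 62.4% in Ofanto CS, from 58.2% to 73.1% in Ofanto HS, from 70.3% to 81.5% in Ofanto DS and from 66.7% to 81.9% in Cappelli DS. None of the called log2 changes of members changed sign under any scaling.

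**Figure D1:**
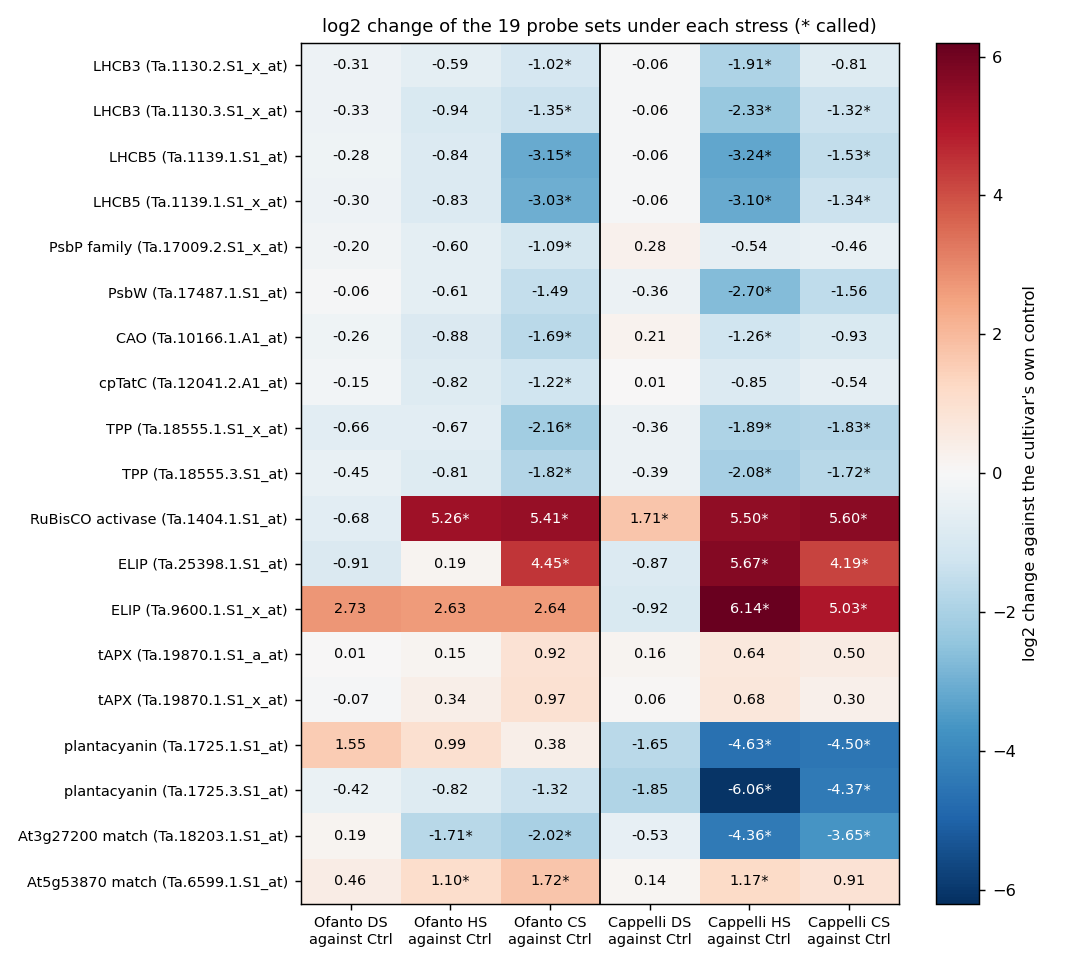
Heat map of the log2 change of each of the 19 member PSs (a line each) in the 6 stress against Ctrl comparisons (columns). Values are from the limma fit on 24 arrays and are printed in each cell. Antenna and thylakoidal processing peptidase PSs are lowest in Ofanto CS and Cappelli HS, while RuBisCO activase stands at 5.26 to 5.60 in the 4 comparisons of HS or CS with Ctrl.

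LHCB5, also called CP26, is a minor antenna protein that sits next to the photosystem II core. Its _at PS, matched to At4g10340, read 69433, 79220 and 81591 in Ofanto Ctrl, 60095, 60628 and 68799 in DS, and 42420, 41774 and 44160 in HS. In Ofanto CS it read 8422, 11422 and 6731. The drop was concentrated in CS: the arrays of DS and HS lay below Ctrl without overlap but far above every CS array. The log2 change was -0.28 in DS, -0.84 in HS and -3.15 in CS, each with SE 0.38. In Cappelli the same PS read 50567, 44181 and 44823 in Ctrl and 39654, 48099 and 46175 in DS. HS gave 7247, 6968 and 2339, and CS 7816, 20768 and 25578. In this cultivar HS was the lowest group, every CS array lay above every HS array, and the CS arrays themselves spread widely. Relative to Ctrl, the log2 change was -0.06 in DS, -3.24 in HS and -1.53 in CS. Without Cappelli CS replicate 1 the change in CS was -1.01 and was no longer called, and without Cappelli HS replicate 3 the change in HS was -2.71 and was still called. The LHCB5 _x_at PS is made for the same transcript and gave -3.03 in Ofanto CS and -3.10 in Cappelli HS (SE 0.36), so it is no independent measurement. Its change in Cappelli CS was -1.34, or -0.81 and not called without Cappelli CS replicate 1.

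LHCB3 is a subunit of the major trimeric antenna of photosystem II. The second of its PSs, matched to At5g54270, read 53369, 64544 and 60830 in Ofanto Ctrl, 30452, 31579 and 30548 in HS, and 27084, 23147 and 20302 in CS. In Cappelli it read 37350, 32774 and 32483 in Ctrl, 8707, 8300 and 4284 in HS, and 7177, 18111 and 19588 in CS. All HS and CS arrays lay below their Ctrl arrays, and the Cappelli HS arrays were the lowest apart from Cappelli CS replicate 1, which fell among them. The log2 change was -0.94 in Ofanto HS, -1.35 in Ofanto CS, -2.33 in Cappelli HS and -1.32 in Cappelli CS (SE 0.29). The last value was -0.86 and not called without Cappelli CS replicate 1. The first LHCB3 PS followed the same order with smaller changes of -1.02 in Ofanto CS, -1.91 in Cappelli HS and -0.81 in Cappelli CS (SE 0.26), the last not called. In DS neither LHCB3 PS was called in either cultivar, with log2 changes of -0.31 and -0.33 in Ofanto and -0.06 for each in Cappelli.

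Photosystem II was represented by PsbW, a small membrane subunit, and by a PsbP family protein, a relative of a water-splitting subunit on the lumen side. The PsbW-related PS, matched to At2g30570, read 1546, 1607 and 1715 in Ofanto Ctrl, 1123, 1019 and 1044 in HS, and 569, 609 and 553 in CS. The Cappelli arrays read 1135, 1181 and 824 in Ctrl, 229, 361 and 48.9 in HS, and 152, 389 and 736 in CS. The Cappelli HS and CS arrays lay below Ctrl and overlapped each other, and 1 HS array fell below the percentile. Against Ctrl this was a log2 change of -1.49 in Ofanto CS, -2.70 in Cappelli HS and -1.56 in Cappelli CS (SE 0.53), of which only that in Cappelli HS was called. It was -1.85 and still called without Cappelli HS replicate 3. The PsbP family PS, matched to At3g55330, was called only in Ofanto CS, where it read 670, 539 and 747 against 1481, 1296 and 1345 in Ctrl, a log2 change of -1.09 (SE 0.29). In Cappelli its change was -0.54 in HS and -0.46 in CS, and the CS arrays overlapped Ctrl.

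CAO, chlorophyll a oxygenase, makes chlorophyll b, a pigment of the antenna. Its PS, matched to At1g44446, read 27858, 27214 and 28480 in Ofanto Ctrl, 22164, 22826 and 25077 in DS, 15170, 14412 and 15748 in HS, and 9199, 8709 and 7950 in CS. The 4 Ofanto groups stood in that order with no overlap. In Cappelli it read 13366, 13059 and 11440 in Ctrl, 13992, 14957 and 14713 in DS, 5888, 5443 and 4554 in HS, and 4792, 7288 and 8300 in CS. Cappelli DS lay above Ctrl, HS and CS lay below it, and HS and CS overlapped. The log2 change was -0.26, -0.88 and -1.69 in Ofanto DS, HS and CS and 0.21, -1.26 and -0.93 in Cappelli (SE 0.15). CAO was called lower in Ofanto CS and in Cappelli HS.

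**Figure D2:**
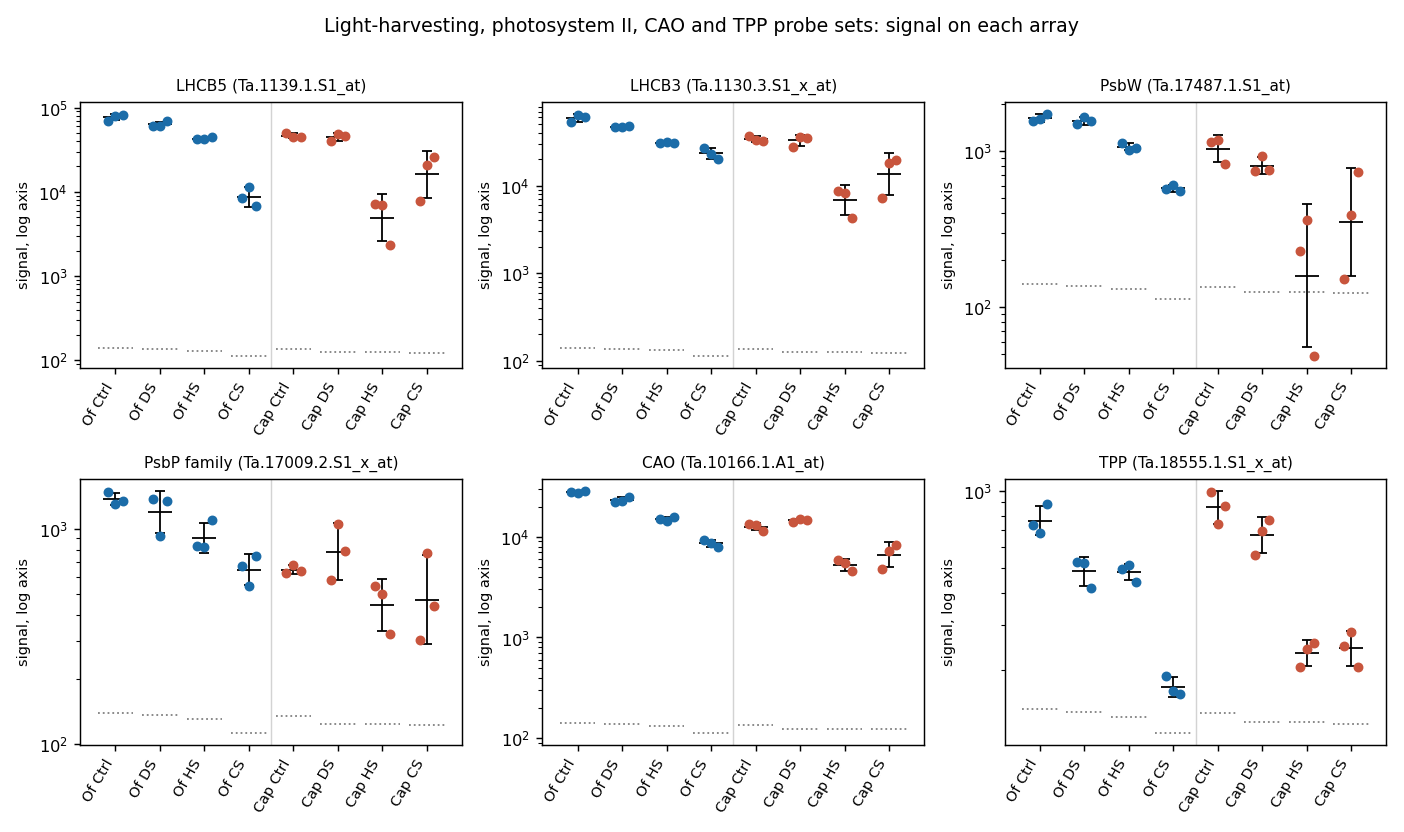
Signal on a log axis (arbitrary MAS5 units) of 6 member PSs in the 8 groups, 1 panel each. They are LHCB5 (_at), LHCB3 (second PS), PsbW, the PsbP family PS, CAO and the thylakoidal processing peptidase (TPP, _x_at). Points are single arrays, the bar is the mean of the log2 values ± SD (n = 3), and the dotted line is the mean 60th percentile of the arrays. Cappelli HS and Ofanto CS lie lowest in the LHCB5 panel, and the Cappelli CS points are spread from 7816 to 25578.

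The thylakoidal processing peptidase (TPP) cuts targeting sequences from proteins that enter the thylakoid lumen. Its _x_at PS, matched to At2g30440, read 735, 684 and 887 in Ofanto Ctrl, 493, 512 and 442 in HS, and 189, 165 and 160 in CS. The Cappelli arrays read 992, 739 and 870 in Ctrl, 205, 241 and 254 in HS, and 247, 281 and 206 in CS. In contrast to the antenna PSs, Cappelli CS was as tight as HS and no array stood apart. Relative to Ctrl, the log2 change was -2.16 in Ofanto CS, -1.89 in Cappelli HS and -1.83 in Cappelli CS (SE 0.16). The TPP _at PS gave -1.82, -2.08 and -1.72 (SE 0.25). Without Cappelli CS replicate 1 the Cappelli CS values were -1.84 and -1.70 and both PSs were still called.

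cpTatC is a subunit of the translocon that moves folded proteins into the thylakoid. Its PS, matched to At2g01110, read 16114, 15075 and 15565 in Ofanto Ctrl, 8795, 8903 and 8789 in HS, and 6854, 6315 and 6966 in CS, 3 groups that did not overlap. The log2 change was -0.82 in HS and -1.22 in CS (SE 0.11), and only that in CS was 2-fold. In Cappelli it read 10429, 9525 and 9597 in Ctrl and 5449, 5236 and 5688 in HS, a log2 change of -0.85, and -0.54 in CS. None of the Cappelli changes of cpTatC reached 2-fold.

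RuBisCO activase removes inhibitory sugar phosphates from RuBisCO and is itself sensitive to heat. Its PS, matched to At2g39730, had the largest change among members called in Ofanto HS, where signals were 60466, 60368 and 61598 against 1656, 1589 and 1506 in Ctrl. In Ofanto CS they were 78223, 58765 and 65876. Cappelli Ctrl read 1287, 1160 and 1407, HS 63108, 50944 and 61129, and CS 65384, 59594 and 62143. Heat, with or without drought, thus went with a signal well above any unheated array in both cultivars. Against Ctrl this was a log2 change of 5.26 and 5.41 in Ofanto HS and CS and 5.50 and 5.60 in Cappelli HS and CS (SE 0.17). Drought alone separated the cultivars: Ofanto DS read 964, 1023 and 984, all below Ctrl (log2 change -0.68), and Cappelli DS read 5200, 2849 and 4976, all above Ctrl (1.71). The PS was called higher in Cappelli DS and was not called in Ofanto DS.

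The ELIP _at PS, matched to At3g22840 and listed through the cluster table, lay below the percentile on all Ctrl and DS arrays of both cultivars and on all Ofanto HS arrays. It read 476, 646 and 567 in Ofanto CS, 1215, 1294 and 1266 in Cappelli HS, and 758, 229 and 532 in Cappelli CS. A group below the percentile has only an upper bound, so folds were taken against the percentile of its arrays or their own signal where higher. The signal was at least 3.98-fold higher than Ctrl in Ofanto CS, at least 9.29-fold in Cappelli HS and at least 3.34-fold in Cappelli CS. The study describes the clusters of the cluster table as all up-regulated, so a rise was part of the selection of both ELIP PSs.

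The ELIP _x_at PS, matched to the same gene, lay below the percentile on all 12 Ofanto arrays, where its signal ranged from 1.65 to 83.9. The Cappelli arrays read 91.8, 76.3 and 54.7 in Ctrl, 4751, 4980 and 5712 in HS, and 3738, 1636 and 2189 in CS. Only the heated Cappelli groups lay above the percentile. The PS passed the filter on low signals through those groups and so had to differ from the rest. The signal was at least 37.9-fold higher than Ctrl in Cappelli HS and at least 17.5-fold in Cappelli CS. For PSs whose code ends in _x_at, _s_at or _a_at, as this one, some probes can bind related transcripts.

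Thylakoid-bound ascorbate peroxidase (tAPX) breaks down the hydrogen peroxide that forms at photosystem I. Its _a_at PS, matched to At1g77490, read 352, 280 and 308 in Ofanto Ctrl, 359, 401 and 290 in HS, and 492, 622 and 670 in CS. In Cappelli it read 511, 526 and 756 in Ctrl, 1006, 997 and 772 in HS, and 846, 747 and 914 in CS. Ofanto CS and Cappelli HS lay above their Ctrl arrays without overlap. The log2 change was 0.92 in Ofanto CS and 0.64 in Cappelli HS (SE 0.17). The _x_at PS gave 0.97 and 0.68 (SE 0.23). Neither PS was called in any stress against Ctrl here, since no change reached 2-fold.

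**Figure D3:**
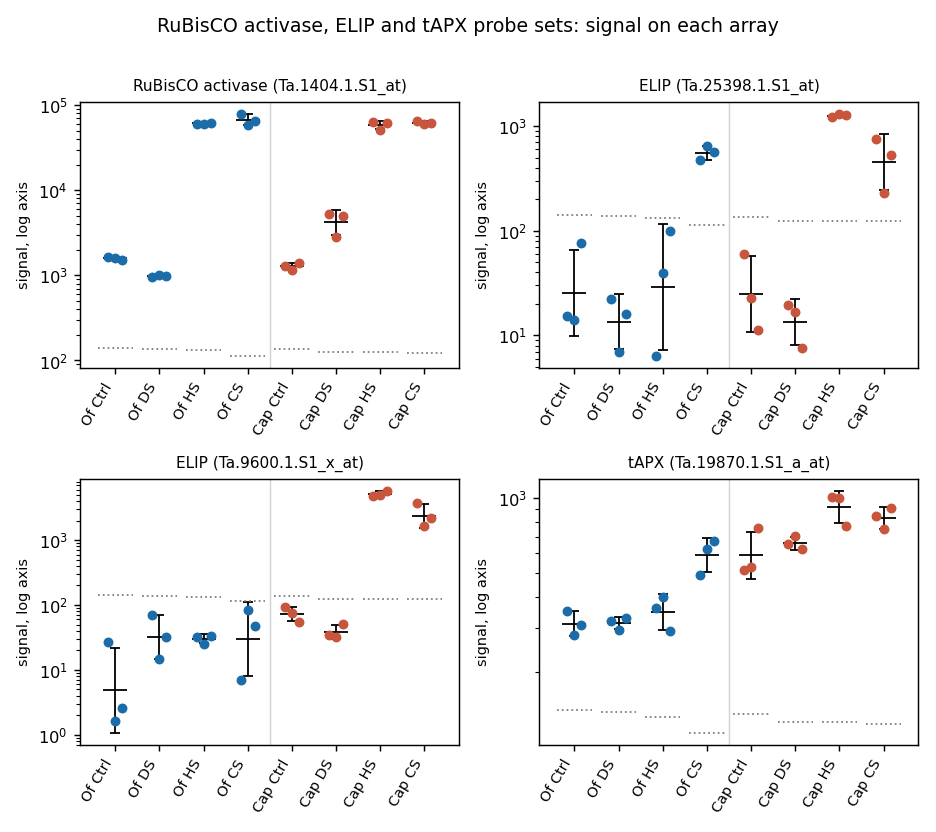
Signal on a log axis (arbitrary MAS5 units) of RuBisCO activase, both ELIP PSs and tAPX (_a_at) in the 8 groups. Points are single arrays, the bar is the mean of the log2 values ± SD (n = 3), and the dotted line is the mean 60th percentile. RuBisCO activase lies between 50944 and 78223 on all 12 heated arrays, and the ELIP _x_at PS is above the line only in Cappelli HS and CS.

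The 4 plastocyanin-like PSs did not move together. One of them matches At3g27200, annotated only by its plastocyanin-like domain. It read 2935, 2721 and 2790 in Ofanto Ctrl, 957, 859 and 773 in HS, and 652, 588 and 879 in CS. The Cappelli arrays read 8494, 8598 and 9793 in Ctrl, 454, 423 and 430 in HS, and 467, 827 and 931 in CS. Cappelli started higher and ended as low or lower, so its log2 change of -4.36 in HS and -3.65 in CS was larger than the -1.71 and -2.02 of Ofanto (SE 0.19). The difference in response was not tested. Another, with At5g53870 as its best but weak match, lay in the opposite direction. It read 909, 814 and 902 in Ofanto Ctrl and 2886, 2898 and 2858 in CS, and its log2 change was 1.10 in Ofanto HS, 1.72 in Ofanto CS, 1.17 in Cappelli HS and 0.91 in Cappelli CS (SE 0.11). This PS came from the cluster table, so a rise was part of its selection.

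Both plantacyanin PSs were in the list without a call in the columns that compare treatments within a cultivar, and each was high in unheated Cappelli leaves. They passed the filter on low signals through those groups and so had to differ from the rest. Plantacyanin is a small blue copper protein of the cell wall space. The second plantacyanin PS, matched like the first to At2g02850, read 737, 904 and 1375 in Cappelli Ctrl, 245, 307 and 261 in DS, 5.03, 25.1 and 24.6 in HS, and 60.9, 29.3 and 57.8 in CS. Its Ofanto arrays all lay below the percentile. It was at least 7.81-fold lower in Cappelli HS and at least 7.91-fold lower in Cappelli CS than in Cappelli Ctrl. The first plantacyanin PS read 697, 1302 and 1247 in Cappelli Ctrl, 259, 369 and 385 in DS, 42.8, 24.8 and 69.96 in HS, and 9.49, 81.6 and 126 in CS. It was at least 8.38-fold lower in Cappelli HS. In Cappelli CS 1 array lay above the percentile and all 3 lay below every Ctrl array. In Cappelli DS both PSs also lay below every Ctrl array, with log2 changes of -1.65 (first) and -1.85 (second), neither of them called.

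The comparison of CS with HS asks what changes when water is withheld during heat. By the study's measurements, CS leaves were also warmer than HS leaves in both cultivars. Water deficit and added leaf heat therefore cannot be told apart in this contrast. In Ofanto, 4 members were called lower in CS than in HS and 1 higher, against 13.1% and 6.73% of all kept PSs, and in Cappelli 1 member was called higher and 0 lower, against 0.52% and 0.399%. The cultivars stood in opposite order for the antenna. The LHCB5 _at PS had a log2 difference of -2.31 in Ofanto and 1.71 in Cappelli, and the _x_at PS of -2.21 and 1.77, the last being the single call in Cappelli. In Ofanto the other members called were both TPP PSs (-1.49 for _x_at and -1.01 for _at) and the ELIP _at PS, which was at least 4.27-fold higher in CS. The median log2 difference over the members was -0.43 in Ofanto and 0.31 in Cappelli, beside -0.20 and -0.03 for all kept PSs. Centring on the array median moved the median of all PSs in Ofanto to -0.04, and the share of higher PSs among those called from 33.9% to 47.5%. The Cappelli figures depend on single arrays. Without Cappelli CS replicate 1, 5 members were called, all higher in CS (LHCB5 2.23 and 2.30, LHCB3 1.56 and 1.48, and the At3g27200 match 1.01), and without Cappelli HS replicate 3 none was.

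Ofanto and Cappelli were then compared within each treatment. Equal treatment did not mean equal leaf state. The study reports lower mean relative water content and higher mean leaf temperature in Cappelli in every treatment, with the widest gaps in CS. Cultivar and leaf state therefore cannot be told apart. The study's list has no column for this contrast, but the 14 members with a within-cultivar call were chosen by stress differences on the same arrays, so the cultivar values are not independent of that choice and are given as a description. Under HS, 9 of the 14 were called higher in Ofanto and 2 lower, where 11.4% of all kept PSs were called higher and 9.24% lower. The 9 were the LHCB5, LHCB3, PsbW, PsbP family, CAO and TPP PSs, and the 2 were those of tAPX. In Ctrl 2 were higher and 2 lower (background 6.42% and 9.09%), in DS 0 were higher and 3 lower (5.12% and 5.16%), and in CS 0 were called in either direction (5.62% and 10.1%). In CS 6 of the 14 had an unadjusted limma p under 0.05. The methods' t-test called 0 of all 28072 kept PSs in that contrast, so its 0 among the 14 says nothing about them. The median log2 difference over the 14 was 0.65 in Ctrl, 0.45 in DS, 1.20 in HS and -0.02 in CS, beside 0.01, 0.02, 0.06 and -0.08 over all kept PSs. Centring on the array median moved the median of all PSs to -0.16 in Ctrl, -0.17 in DS and 0.03 in CS, and the share of higher PSs among those called from 41.4% to 28.2% in Ctrl and from 49.8% to 34.5% in DS.

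Among the 14, LHCB5, PsbW and LHCB3 had the largest cultivar differences under HS. LHCB5 was 3.12 log2 units higher in Ofanto HS than in Cappelli HS (_at PS, SE 0.38) and 3.01 for the _x_at PS (SE 0.36). For PsbW the difference was 2.74 (SE 0.53). The LHCB3 PSs differed by 1.97 (first PS) and 2.19 (second PS). All 3 Ofanto arrays lay above all 3 Cappelli arrays in each of these. Without Cappelli HS replicate 3, the LHCB5 _at PS differed by 2.59 and PsbW by 1.88, and both were still called. In Ctrl the same PSs were 0.65 to 0.80 higher in Ofanto, none of them called. In CS the LHCB5 _at PS lay the other way, at -0.89 with a 95% interval from -1.69 to -0.09, which was not called, and at -1.41 without Cappelli CS replicate 1, which was called.

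CAO was higher in Ofanto in Ctrl by 1.14 (SE 0.15) and in HS by 1.52. In DS it was 0.68 higher, below 2-fold, and in CS the arrays overlapped (0.38, 95% interval 0.06 to 0.70). The PsbP family PS was higher in Ofanto by 1.09 in Ctrl and by 1.04 in HS. Its call in HS was lost without Cappelli HS replicate 3 (0.81). The TPP PSs differed in HS, by 1.05 (_x_at PS) and 1.34 (_at PS), and in Ctrl by -0.17 and 0.07 with overlapping arrays. For its part, cpTatC was 0.66, 0.51 and 0.69 higher in Ofanto in Ctrl, DS and HS, all under 2-fold, and -0.01 in CS (95% interval -0.24 to 0.22).

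The antioxidant and carbon fixation members ran differently. Both tAPX PSs were lower in Ofanto. The _a_at PS differed by -1.07 in DS and -1.40 in HS, and by -0.91 in Ctrl, under 2-fold. The _x_at PS differed by -1.02, -1.16 and -1.36 in Ctrl, DS and HS. RuBisCO activase was lower in Ofanto DS than in Cappelli DS by 2.08 log2 units (difference -2.08, SE 0.17), while in Ctrl, HS and CS the differences were 0.30, 0.06 and 0.11 with 95% intervals within -0.29 and 0.66. The At3g27200 match was lower in Ofanto Ctrl by 1.67 (difference -1.67), and its difference in HS was 0.98, just under 2-fold.

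With Ofanto Ctrl replicate 1 as the only Ofanto control array, the Ctrl differences of CAO (1.15) and of the At3g27200 match (-1.61) were still called. Those of the PsbP family PS (1.20) and of the tAPX _x_at PS (-1.17) were not. This fit assumes that the lone array varies like the other groups.

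The 5 remaining members had no within-cultivar call or came from the cluster table. The filter or the clustering used the groups compared here, so their values are a description too. The ELIP _at PS was at least 9.62-fold higher in Cappelli HS than in Ofanto HS, and its CS arrays overlapped between cultivars. The ELIP _x_at PS was at least 39.2-fold higher in Cappelli in HS and at least 21-fold in CS. The first and second plantacyanin PSs were at least 7.43-fold and 6.93-fold higher in Cappelli Ctrl than in Ofanto Ctrl. The At5g53870 match had log2 differences between -0.70 and 0.19.

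**Figure D4:**
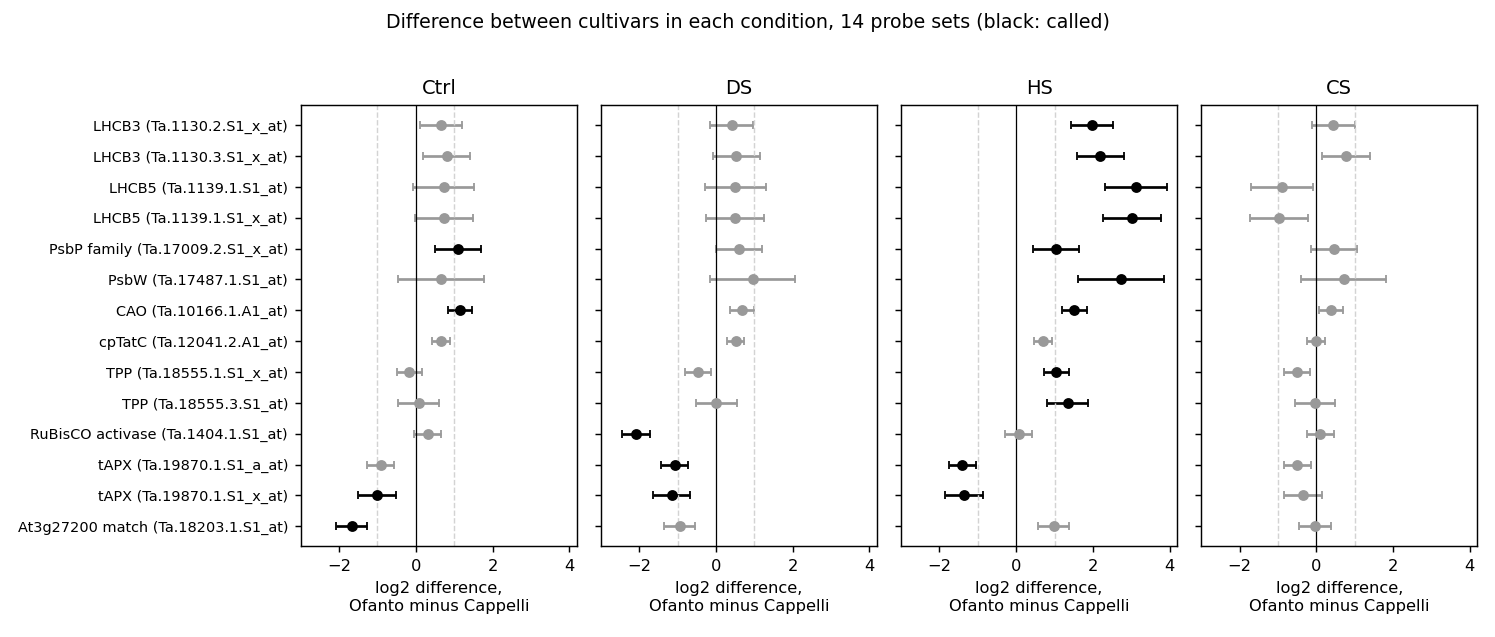
Log2 difference of Ofanto against Cappelli in Ctrl, DS, HS and CS for the 14 PSs with a within-cultivar call. Points are limma estimates from 3 arrays per group, and bars are their 95% confidence intervals. In HS the antenna and photosystem II PSs lie right of 0, up to 3.12, and in CS most intervals reach or cross 0.

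Genes picked without regard to the study's lists were available from the platform annotation only for petC and FBP. Whether the study had listed their PSs was not checked, since its lists are held only in part. The gene petC codes for the Rieske iron-sulfur protein of the cytochrome b6f complex, which links both photosystems. One petC PS read 56626, 62129 and 60459 in Ofanto Ctrl, 40543, 44533 and 42479 in HS, and 45453, 40961 and 41775 in CS. Relative to Ctrl, the log2 change was -0.49 in HS (SE 0.11, limma adjusted p = 0.002) and -0.48 in CS (adjusted p = 0.0014). In Cappelli it was -0.58 in HS (adjusted p = 0.00036) and -0.19 in CS (adjusted p = 0.18). The changes in Ofanto HS and CS and in Cappelli HS were larger than the spread between replicates but under 2-fold, while the Cappelli CS arrays overlapped Ctrl. The cultivars' responses of petC differed by -0.20, 0.09 and -0.29 in DS, HS and CS, none past the threshold (adjusted p = 0.49, 0.70 and 0.17). The other petC PS lay below the percentile on all arrays.

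FBP is fructose-1,6-bisphosphatase, an enzyme of the Calvin cycle in the chloroplast and of sucrose synthesis in the cytosol, and the annotation does not say which form a PS reports. The first FBP PS read 18609, 20387 and 20046 in Ofanto Ctrl, 7652, 9091 and 9770 in HS, and 5184, 5593 and 5315 in CS. In Cappelli it read 10997, 10318 and 9767 in Ctrl, 3210, 2829 and 1238 in HS, and 1955, 4592 and 4680 in CS. It fell in all 4 heated groups, with log2 changes of -1.16 and -1.87 in Ofanto HS and CS (SE 0.30, limma adjusted p = 0.0043 and 3e-05) and -2.21 and -1.57 in Cappelli HS and CS (adjusted p = 7.3e-06 and 0.0003). In HS it was 1.97 higher in Ofanto than in Cappelli (adjusted p = 3.8e-05), or 1.54 without Cappelli HS replicate 3 (adjusted p = 0.00013). The responses of the cultivars differed by 1.05 in HS (SE 0.43, adjusted p = 0.068), by 0.07 in DS and by -0.30 in CS, none past the threshold. The second FBP PS was dim and was kept only through Ofanto DS, at 161 to 194, so no test of it is given. It read 67.4, 299 and 302 in Ofanto Ctrl and 47.1 to 77.0 in CS, which overlapped. Neither the kept petC PS nor the first FBP PS had a response difference called by limma in any stress.

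Other PSs of the study's lists were gathered by 7 lists of pathway words, which found 66 PSs beside the members. They too were selected as changed by the study, so their counts are a description. Of the 3155 annotated PSs searched, 1684 are in the cluster table, whose clusters the study describes as all up-regulated. A rise was thus part of the selection for any PS that came from it. The words also gathered PSs that are not photosynthetic, such as sulfite reductase beside ferredoxins, and chaperonins of the cytosol and mitochondria. In Ofanto, 3 of the 66 were called higher and 0 lower in DS, 23 and 8 in HS, and 34 and 18 in CS. The shares of all kept PSs in the same order were 2.67% and 1.13%, 10.4% and 7.46%, and 14.4% and 19.7%. In Cappelli the counts were 3 and 1, 28 and 17, and 25 and 10, beside shares of 0.891% and 0.445%, 11.2% and 13.6%, and 9.89% and 11.8%. Their median log2 change in Ofanto CS was 1.04, against -1.22 for the members. Nothing is read from this contrast, since the selection used the direction of change in part.

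Most plastid chaperone and protease PSs were called higher in the heated groups. These proteins fold imported proteins and clear damaged ones. A rise was part of the selection for any PS that came from the cluster table, so nothing is read from the direction. Of 12 PSs, 9 and 11 were called higher in Ofanto HS and CS and 10 and 10 in Cappelli HS and CS, and none lower. Among all kept PSs, 10.4%, 14.4%, 11.2% and 9.89% were called higher in these 4 groups. The 6 PSs of the RuBisCO subunit-binding protein alpha, a chaperonin that assembles RuBisCO, were called higher in all 4 heated groups, with log2 changes from 1.08 to 2.91. The FtsH protease PS read 61.5, 63.1 and 59.4 in Ofanto Ctrl and 20288, 17062 and 21793 in CS, at least 140-fold higher. In Cappelli HS it read 14066, 15797 and 21575, a log2 change of 6.43 (SE 0.38). FtsH proteases of the thylakoid are known to degrade damaged photosystem II protein. The annotation text names no compartment for this PS, which was counted among the 12 plastid PSs by its Arabidopsis match. For comparison, 4, 11, 8 and 7 of 15 cytosolic and mitochondrial chaperonin and protease PSs were called higher in the same 4 groups.

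Carbon fixation enzymes were called in both directions. A PS of sedoheptulose-bisphosphatase (SBPase), a regulated step of the Calvin cycle, had log2 changes of -1.15 and -2.65 in Ofanto HS and CS and -2.40 and -1.74 in Cappelli HS and CS (SE 0.28). Of the 4 SBPase PSs, 2 and 4 were called lower in Ofanto HS and CS and 3 and 1 in Cappelli HS and CS. Among all kept PSs, 7.46%, 19.7%, 13.6% and 11.8% were called lower in these groups. A PS of the carbonic anhydrase family, whose enzyme interconverts carbon dioxide and bicarbonate, stood at -3.91 in Ofanto CS and -1.45 in Cappelli HS (SE 0.12). Another PS of this family was called higher in Ofanto CS (2.53). Of the 4 PSs of serine hydroxymethyltransferase, 2 were called higher in Ofanto DS and 0 in Ofanto HS or CS. In Cappelli HS and CS 4 and 3 were called lower. A share of 2.67% of all kept PSs was called higher in Ofanto DS. The enzyme has a photorespiratory form, and the annotation does not say that these PSs report it.

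Photosystem and chlorophyll PSs of these lists resembled the members in part. The PS annotated to the PsbQ family, matched to At1g14150, had log2 changes of -2.48 in Ofanto CS and -2.89 in Cappelli HS (SE 0.31). In Cappelli CS it stood at -1.45 and in Ofanto HS at -0.84, the last not called. The annotation names a family and does not say that this PS reports the PsbQ protein of photosystem II itself. The PS of geranylgeranyl reductase, which makes the phytol tail of chlorophyll, stood at -1.62 and -2.18 in Ofanto HS and CS, -1.63 in Cappelli HS and -0.64 in Cappelli CS (SE 0.21). None of the 3 magnesium chelatase subunit I PSs was called in any stress, where this enzyme opens the chlorophyll branch of tetrapyrrole synthesis. Of the 2 PSs of pheophorbide a oxygenase, which opens the chlorophyll ring during breakdown, 2 were called higher in Cappelli HS (1.32 and 1.74) and 1 in each of Ofanto HS and CS. The PS of ferrochelatase I, which makes haem from the same precursor as chlorophyll, was called higher in Ofanto DS (1.50) and lower in Cappelli DS (-1.03) and CS (-1.69).

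**Figure D5:**
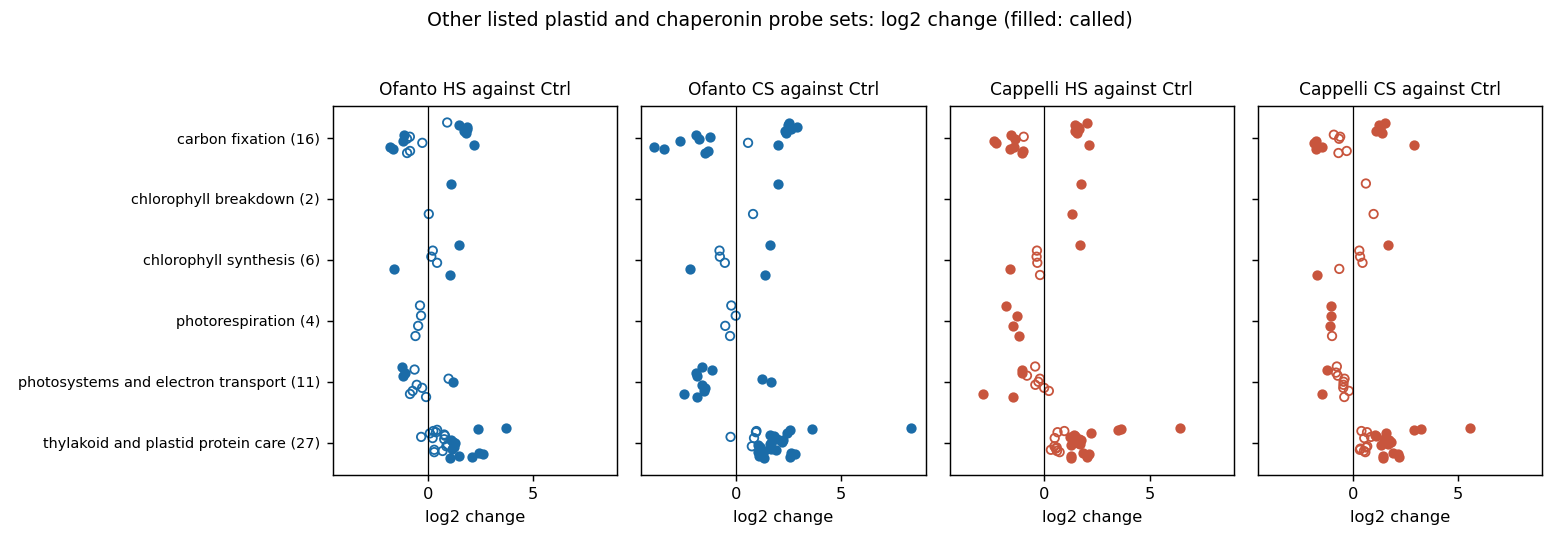
Log2 change against Ctrl of the 66 other PSs of the study's lists, by pathway list, in HS and CS of each cultivar. Each point is 1 PS from the limma fit, and all were listed as changed by the study. For any PS from the cluster table a rise was part of the selection. Points of the thylakoid and plastid protein care list lie mostly above 0 in HS and CS and reach 8.32. Those of the photosystems and electron transport list lie mostly below 0 in Ofanto CS. The first list also holds cytosolic and mitochondrial chaperonins, and the second also holds sulfite reductase.

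The array holds 13 further PSs with the same cluster code as a member that are in neither table as held, of which 8 were kept. A shared code points to related sequences and not to independent genes. In Ofanto CS 4 of the 8 were called lower and 0 higher: 1 with the code of LHCB3 (-1.34), 1 with that of the PsbP family PS (-2.20) and 2 with that of TPP (-2.68 for the _a_at PS and at least 3.68-fold lower for the _x_at PS, whose CS arrays lay below the percentile). In Cappelli HS 4 were called lower: 1 with the code of LHCB3 (-1.73), 1 with that of cpTatC (-1.33) and 2 with that of TPP (-1.73 and -2.19). They were picked by the code of a member and share its selection in part, so no test is given. Among all kept PSs, 19.7% were called lower and 14.4% higher in Ofanto CS, and 13.6% lower in Cappelli HS.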

How the data were processed

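RNA of 24 leaf samples was hybridised to the Affymetrix wheat array, and the authors deposited 1 intensity per PS and array, MAS5 signal on a linear scale per the labels, with no version given in the sources used here. The study's methods name RMA normalization for its own tests, so low signals in particular may differ from those it analysed. Groups were taken from titles and source names. The 111 control PSs were left out. Log2 of the deposited signal, with no offset, was fitted with 8 group means in limma 3.58.1 (R 4.3.3, 16 residual and 1.97 prior degrees of freedom), with Benjamini-Hochberg adjustment over the 28072 kept PSs. The methods' thresholds were used (adjusted p under 0.01, at least 2-fold). The script was tested on simulated data. The number of arrays limits the precision, since 3 arrays stand for each group.

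The word search ran on the parts of both tables held here (1836 and 1684 annotated PSs), so members outside them are not analysed here. Annotations are the best Arabidopsis matches named in these tables, and none of their values were used. The members, word lists and tests were chosen with earlier results of these data known. Every member is named. Of the 66 other PSs, the candidates for naming were the 5 largest rises and 5 largest falls per stress among called PSs with no overlap between groups, 1 PS per annotation, and further PSs were named after their values were seen. The platform table gives symbols with no pathway words, so the other PSs came from the study's lists. The cultivar contrasts and the stress contrasts of plantacyanin, planned as tests of members, are given as a description, because the selection or the filter used the same arrays. Replicate numbers did not pair the samples. Alternatives were another scaling, offset, filter, test or set of arrays, and their effect is given at the end.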

Additional observations from a re-analysis of the deposited data

Results flagged for a closer look

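In 3 members the Ofanto arrays all moved one way against their controls and the Cappelli arrays all moved the other way. Each value is the change in Ofanto minus the change in Cappelli on the log2 scale, and the difference was not tested, because the PSs had been selected on these arrays. In DS it was -0.464 for CAO, -2.39 for RuBisCO activase and 3.2 for the first plantacyanin PS. In HS it was 5.62 for the same plantacyanin PS. Of the changes behind these values, only those of RuBisCO activase in Cappelli DS and of plantacyanin in Cappelli HS were called. All Ofanto Ctrl and HS arrays and 2 of 3 Ofanto DS arrays of the plantacyanin PS lay below the 60th percentile of their array. The direction of its Ofanto changes is therefore not established, and the last 2 values have no exact size. The Ofanto Ctrl group in all 4 values includes replicates 2 and 3, whose descriptions hold the drought treatment. With replicate 1 as the only Ofanto control, the Ofanto DS changes were -0.26 for CAO and -0.74 for RuBisCO activase, beside -0.26 and -0.68 with all 3.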

How the results depend on the processing

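Of 126 named log2 changes past the thresholds, 0 changed direction under any alternative. The side of the threshold was lost in 174 of the fits with another setting, 94 of them under the methods' t-test with Benjamini-Hochberg adjustment, and in 64 of the fits that leave out 1 array. Of 21 counts, 2 stayed within 1.5 times their value under all alternatives. In what follows the count of the limma fit stands in brackets. The methods' t-test called 7 (13) members in Ofanto CS, 0 (1) in Cappelli DS, 4 (15) in Cappelli HS, 1 (11) in Cappelli CS, 2 (5) and 0 (1) in CS against HS of Ofanto and Cappelli, and 0 (4), 1 (3) and 0 (11) between cultivars in Ctrl, DS and HS. It called 0 of all kept PSs in Cappelli DS and in Cappelli CS against HS, so its 0 there says nothing about the members. Of the other listed PSs it called 0 (3) in Ofanto DS, 15 (31) in Ofanto HS, 0 (4) in Cappelli DS, 14 (45) in Cappelli HS, 2 (35) in Cappelli CS, and 5 (18) and 0 (2) in CS against HS. A fit on only the groups compared, which has fewer samples, called 0 (1) members in Cappelli DS, 7 (11) in Cappelli CS, 0 (1) in Cappelli CS against HS and 7 (11) between cultivars in HS, and of the others 1 (3) in Ofanto DS, 1 (4) in Cappelli DS and 0 (2) in Cappelli CS against HS. With an offset of 32 before the log, 2 (1) members were called in Cappelli DS and 2 (1) in Cappelli CS against HS. The single member called in the latter became 0 with the filter at the 50th percentile, with no filter and with median centring, and 2 with the filter at the 70th. Quantile normalization and Ofanto Ctrl replicate 1 as the lone control each left 2 (4) cultivar calls in Ctrl. Of the others, median centring called 6 (3) in Ofanto DS and 1 (2) in Cappelli CS against HS, and no filter 1 (2) in the latter. The cause was not tested.

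Replicate numbers did not pair the samples: the correlation of deviations ran from -0.246 to 0.0733 over 84 same-numbered pairs, 9 of 24 arrays correlated best with their own number, and with a replicate block the members called in Cappelli CS against HS went from 1 to 0, with no other count moved by over 1.5 times.

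Leaving out 1 array at a time gave 0 to 1 members called in Ofanto DS, 3 to 4 in HS and 12 to 15 in CS, 1 in every case in Cappelli DS, 15 in every case in HS and 8 to 14 in CS, 4 to 5 and 0 to 5 in CS against HS of Ofanto and Cappelli, and 2 to 4, 3 in every case, 10 to 11 and 0 to 2 between cultivars in Ctrl, DS, HS and CS. The ranges of the other PSs were 2 to 5, 28 to 33 and 50 to 53 in Ofanto, 3 in every case, 43 to 46 and 30 to 39 in Cappelli, and 15 to 23 and 1 to 8 in CS against HS. The response difference of the petC and FBP PSs was called 0 to 2 times, the higher without Ofanto Ctrl replicate 1. This count includes the second FBP PS, for which no test is given, so nothing is read from it. The upper ends in Cappelli CS against HS, 5 members and 8 others, and the 2 cultivar calls in CS came without Cappelli CS replicate 1, the 5 others in Ofanto DS without Ofanto Ctrl replicate 1, and the 2 cultivar calls in Ctrl without Cappelli Ctrl replicate 2 or 3. PSs whose groups lie below the percentile of their arrays have bounds only, and depth cannot be stated for arrays.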
